A study of Mus musculus with 13 samples.

Results

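Hepatic stellate cell and myofibroblast markers were followed across the series as 9 named genes. Lrat, Reln, Hgf and Colec11 were taken as markers of the quiescent stellate cell. Des, Pdgfra, Pdgfrb, Acta2 and Tagln were taken as markers of the activated cell and the myofibroblast. These classes were set beforehand and were not tested here. Each gene was read from its probe set with the highest mean over all 13 arrays, and all 9 were measured, among 18193 genes with a probe set of their own. The 9 genes have 20 such probe sets in all. RNA came from 8 liver tumours of mir-122 knockout mice and 5 livers of wild-type control mice, all of the B6/129 background strain. At 11 months there were 3 tumours (KO_tumor_11M) and 2 control livers (control_liver_11M), and at 14 months 5 tumours (KO_tumor_14M) and 3 control livers (control_liver_14M). Knockout liver without a tumour was not analysed here, so genotype and tumour cannot be told apart. The labels do not say whether the knockout was confined to a cell type or whether the tumours came from separate mice, so p-values measure the spread between these samples, which may be technical.

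Stellate cells lie between the hepatocytes and the sinusoidal endothelium and store vitamin A as retinyl esters. After injury they lose those stores, gain receptors for platelet-derived growth factor (PDGF), take on contractile proteins of smooth muscle and deposit collagen, and are then called myofibroblasts. Acta2 and Tagln are also made by vascular smooth muscle, and Pdgfra and Pdgfrb by other fibroblasts and pericytes, so in whole tissue none of these activated markers belongs to 1 cell type. In bulk RNA, fewer cells of a type and less RNA per cell cannot be told apart.

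Promoters of Lrat, Reln and Acta2 are shown because these genes stand for the retinoid, secreted and contractile sides of the marker set, and they differ in base composition and motifs. The sequences are the 250 bases before the RefSeq gene start in GRCm38.p6, 5′ to 3′ on the strand of the gene, at chr3:82903975-82904224 (minus strand), chr5:22344706-22344955 (minus strand) and chr19:34255374-34255623 (minus strand). Capitals mark 3 motifs searched on both strands: the GC box GGGCGG, the TEAD-type motif CATTCC, and the CArG box, the binding motif of serum response factor, with 1 of its 6 central A or T bases replaced.
Lrat: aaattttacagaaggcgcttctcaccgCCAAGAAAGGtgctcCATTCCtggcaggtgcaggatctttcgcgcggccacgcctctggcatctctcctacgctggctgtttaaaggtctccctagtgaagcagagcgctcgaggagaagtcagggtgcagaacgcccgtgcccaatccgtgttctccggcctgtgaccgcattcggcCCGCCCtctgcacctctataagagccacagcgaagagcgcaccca
Reln: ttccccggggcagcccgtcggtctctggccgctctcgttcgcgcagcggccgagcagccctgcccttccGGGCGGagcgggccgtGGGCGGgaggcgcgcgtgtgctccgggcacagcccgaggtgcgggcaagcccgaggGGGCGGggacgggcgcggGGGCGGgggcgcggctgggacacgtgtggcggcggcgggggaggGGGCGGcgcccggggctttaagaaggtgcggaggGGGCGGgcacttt
Acta2: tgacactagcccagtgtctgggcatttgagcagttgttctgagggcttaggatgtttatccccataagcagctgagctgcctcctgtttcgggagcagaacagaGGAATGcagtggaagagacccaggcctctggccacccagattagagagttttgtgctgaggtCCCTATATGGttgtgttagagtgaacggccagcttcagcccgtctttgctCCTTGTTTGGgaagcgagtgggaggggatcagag
In the Acta2 window there were 2 such CArG-type matches, starting 84 and 34 bases before the gene start, and 1 CATTCC match on the opposite strand 146 bases before it. Lrat held 1 CArG-type match, 1 CATTCC and 1 GGGCGG. In Reln the only matches to these 3 motifs were 6 of GGGCGG. Of 32851 promoter windows of the same length, 7.25% held the CArG box with 1 such replacement, 12.6% CATTCC and 32.7% GGGCGG. The unaltered CArG box, held by 1.47% of windows, had no match in these 3 windows. Promoters were listed for 7 of the 9 genes, without Pdgfrb and Tagln. Those of Hgf, Colec11, Des and Pdgfra, not shown, held no CArG-type or CATTCC match, and among them only Des held GGGCGG. Other motifs were also searched and are not marked. A match describes the letters only.

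Some arrays stood apart. On the first principal component, which held 49.5% of the variance, controls lay between -79.31 and -64.49 and 5 tumours between 67.73 and 92.15, while KO_tumor_11M replicates 1 and 2 and KO_tumor_14M replicate 4 lay at -2.67, -17.82 and 1.54. Among controls, the pair made of control_liver_11M replicate 1 and control_liver_14M replicate 3 was nearly identical (r = 0.995), with 58 probe sets over 2-fold apart, against 485 to 1310 such probe sets for the other 9 control pairs. For each gene list the count of genes called is also given without the nearly identical controls and without the 3 tumours near 0 on this component. Those 3 tumours were picked on these same values and lay nearer the controls than the other 5 did. Leaving them out can deepen rises and falls by the choice itself, so calls gained in that setting are a description only. The calls of single genes outside the 9 markers are given without them only in part. With the ages combined, 10.3% of all genes were called higher and 9.81% lower, against 4.34% and 3.18% without the nearly identical controls and 16.6% and 13.4% without the 3 tumours, and each list's counts are to be read against these shares. The mean level over 10 measured hepatocyte markers was 12.18 to 13.03 (log2) in tumours and 12.88 to 13 in controls. Of these 10 markers 2 were lower and 0 higher in tumours, Asgr2 by a log2 fold change of -1.53 (SE 0.41, limma adjusted p = 0.0233) and Asgr1 by -1.12 (SE 0.30, adjusted p = 0.0254).

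Of the 9 markers, Pdgfrb was higher and Lrat lower in tumours with the ages combined, and the other 7 did not pass the threshold. All arrays entered 1 limma fit of the log2 levels, the 2 ages were weighted equally, and Benjamini-Hochberg adjusted p-values, taken over the 18193 genes, were called under 0.05. Against 10.3% of all genes higher and 9.81% lower in that contrast, 1 of 9 in each direction is close to the share among all genes. All tumours lay above all controls for 1 of the 9 genes, Pdgfrb, against 6.22% of all genes, and all tumours lay below all controls for 0 of 9, against 5.07%. The median log2 fold change was -0.27 over the 4 quiescent markers and 0.37 over the 5 activated markers, against -0.05 over all genes. The quiescent median ran from -0.46 to -0.15 with each array left out in turn and was -0.50 without the 3 tumours apart on the first component. With both nearly identical controls left out 0 of the 9 markers passed, when 1368 of 18193 genes did. With the 3 tumours apart on the first component left out, 2 quiescent markers fell (Lrat and Reln) and 1 activated marker rose (Pdgfrb), when 5467 of 18193 genes were called, a share near that of the markers.

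**Figure D1:**
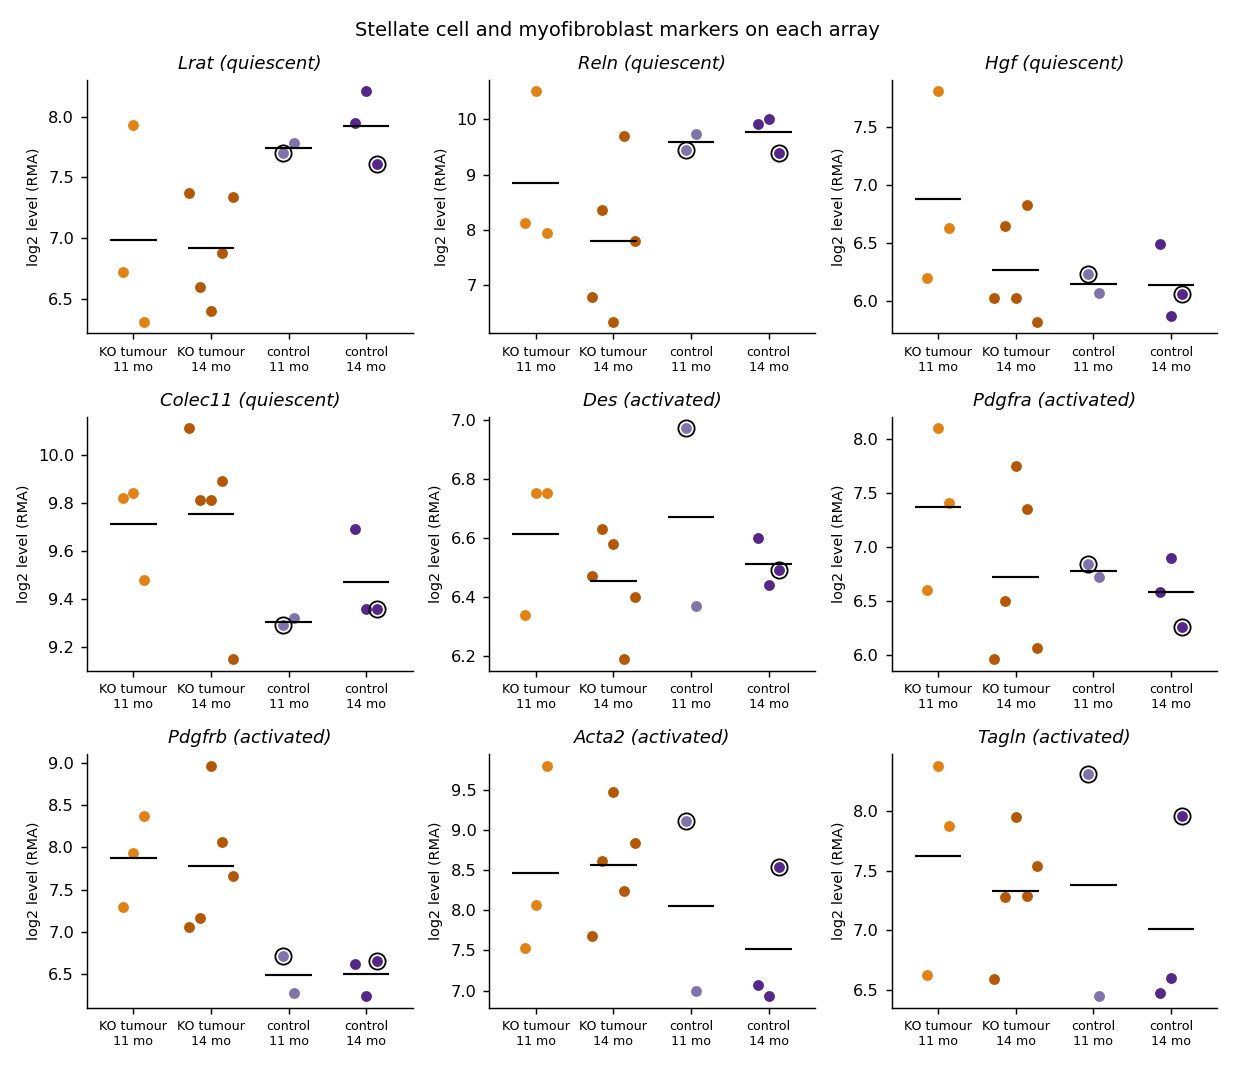
Log2 level (RMA, y axis) of each of the 9 markers on each array, with points for arrays, horizontal lines for group means and rings around the 2 nearly identical controls. For Pdgfrb every tumour (7.06 to 8.97) lies above every control (6.24 to 6.71), while for Acta2 and Tagln the ringed controls lie among the tumours.

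Lrat encodes lecithin retinol acyltransferase, the enzyme that esterifies retinol for storage in stellate cells. Its log2 level was 6.72, 7.93 and 6.31 in the 11-month tumours and 7.37, 6.60, 6.4, 6.88 and 7.34 in the 14-month tumours, against 7.70 and 7.78 in 11-month controls and 7.95, 8.21 and 7.61 in 14-month controls. Among tumours, only KO_tumor_11M replicate 2 reached the range of the controls, and the other 7 lay below every control. Lrat averaged 6.94 ± 0.56 in tumours and 7.85 ± 0.23 in controls (SD, n = 8 and 5), and the log2 fold change was -0.88 (SE 0.27, limma adjusted p = 0.0428). Its second, dimmer probe set fell as well, by 0.72 on the log2 scale (SE 0.19, adjusted p = 0.03 over all probe sets).

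The Lrat call rested on few arrays. It was lost without any 1 of the 5 controls, without any 1 of KO_tumor_11M replicates 1 and 3 or KO_tumor_14M replicates 2, 3 and 4, and without both nearly identical controls (log2 fold change -0.97, adjusted p = 0.127), while the log2 fold change stayed between -1.21 and -0.71 in all 25 alternative settings. Without the 3 tumours apart on the first component it was -1.21 (adjusted p = 0.00536). At 11 months the log2 fold change was -0.75 (SE 0.43, adjusted p = 0.409) and at 14 months -1.0 (SE 0.34, adjusted p = 0.0679).

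Reln encodes reelin, a large secreted glycoprotein best known from neuronal migration and made in liver by stellate cells. It stood at 8.13, 10.51 and 7.94 in the 11-month tumours and at 6.79, 8.36, 6.34, 9.71 and 7.81 in the 14-month tumours, against 9.45 and 9.74 in 11-month controls and 9.91, 10 and 9.39 in 14-month controls. Tumours were far more spread than controls, with KO_tumor_11M replicate 2 above every control, KO_tumor_14M replicate 4 inside their range and the other 6 tumours below it. The means were 8.2 ± 1.38 in tumours and 9.70 ± 0.27 in controls (SD, n = 8 and 5), a log2 fold change of -1.35 (SE 0.59, limma adjusted p = 0.124). Without KO_tumor_11M replicate 2 it was -1.76 (adjusted p = 0.0377), and without KO_tumor_14M replicate 4 it was -1.59 (adjusted p = 0.039). These were the highest tumours for Reln, so leaving either out could only deepen the fall. Without the 3 tumours apart on the first component it was -2.05, and without both nearly identical controls -1.51. Reln passed in only 3 of the 25 alternative settings, with log2 fold changes from -2.05 to -0.79 and adjusted p up to 0.261. The second probe set of Reln was at 3.14 on average, against a median of 5.17 for all probe sets, and its log2 fold change was -0.23.

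Hgf, which encodes hepatocyte growth factor, the ligand of the receptor Met, did not pass the threshold. Its level was 6.20, 7.81 and 6.63 in the 11-month tumours and 6.03, 6.65, 6.03, 6.83 and 5.82 in the 14-month tumours, against 6.23 and 6.07 in 11-month controls and 6.49, 5.87 and 6.06 in 14-month controls. KO_tumor_11M replicate 2 was again the highest array, and among the other 7 tumours 3 were above the highest control, 1 below the lowest and 3 between them. With the ages combined the log2 fold change was 0.43 (95% interval -0.17 to 1.03, limma adjusted p = 0.275). The other 2 probe sets gave 0.40 and -0.18, so the probe sets of Hgf did not share a direction.

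Colec11 encodes collectin-11, a soluble lectin that starts the lectin pathway of complement. It was at 9.82, 9.84 and 9.48 in the 11-month tumours and at 10.11, 9.81, 9.81, 9.89 and 9.15 in the 14-month tumours, against 9.29 and 9.32 in 11-month controls and 9.69, 9.36 and 9.36 in 14-month controls. Most tumours were above most controls, with KO_tumor_14M replicate 5 the lowest of all arrays. The log2 fold change was 0.35 (95% interval 0.01 to 0.68, limma adjusted p = 0.125), and without KO_tumor_14M replicate 5 it was 0.42 (adjusted p = 0.0213). Leaving out that lowest array could only raise the fold change. It was the only 1 of 25 alternative settings in which Colec11 passed, with adjusted p up to 0.451 in the others. The second probe set had 0.16 (adjusted p = 0.546 over all probe sets). Within the quiescent set, Lrat passed with a lower level, and Reln, below 0, and Hgf and Colec11, above 0, did not pass.

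**Figure D2:**
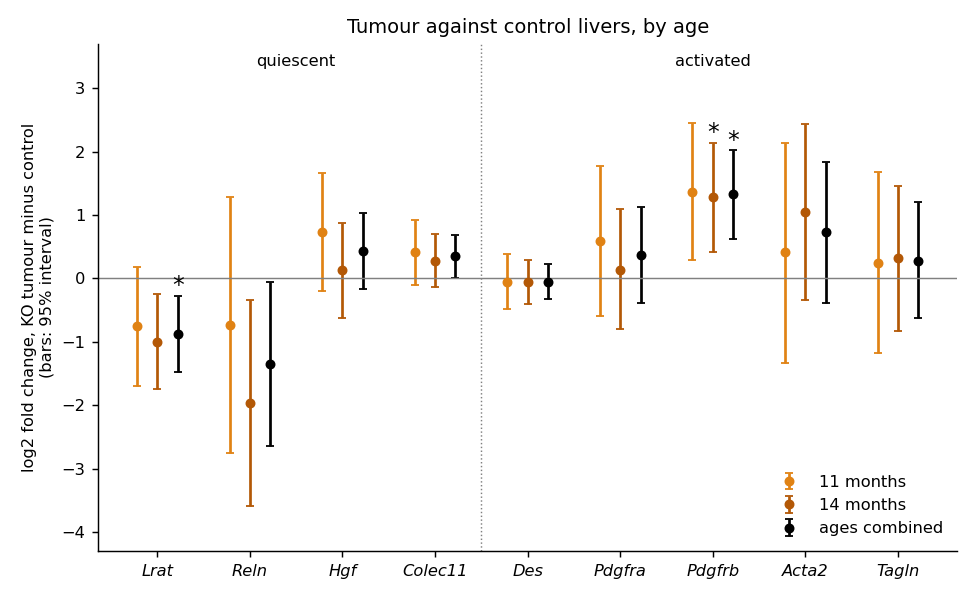
Log2 fold change, knockout tumour minus control, for each marker (x axis) at 11 months, at 14 months and with the ages combined, with 95% intervals as bars and asterisks at an adjusted p under 0.05. Asterisks stand at Lrat with the ages combined and at Pdgfrb at 14 months and with the ages combined, and the intervals of Reln and Acta2 are the widest with the ages combined.

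Pdgfrb encodes PDGF receptor beta, the receptor through which PDGF-B drives stellate cell growth and migration. It was at 7.30, 7.94 and 8.37 in the 11-month tumours and at 7.06, 7.17, 8.97, 8.06 and 7.66 in the 14-month tumours, against 6.71 and 6.28 in 11-month controls and 6.62, 6.24 and 6.66 in 14-month controls. No tumour overlapped the controls, and KO_tumor_14M replicate 3 and KO_tumor_11M replicate 3 were highest. Pdgfrb averaged 7.82 ± 0.65 in tumours and 6.50 ± 0.22 in controls (SD, n = 8 and 5), and the log2 fold change was 1.33 (SE 0.32, limma adjusted p = 0.0142). The second probe set rose by 0.70 (SE 0.20, adjusted p = 0.0396 over all probe sets).

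At 11 months the log2 fold change of Pdgfrb was 1.37 (SE 0.49, limma adjusted p = 0.187) and at 14 months 1.28 (SE 0.39, adjusted p = 0.0498). At 11 months 1.31% of all genes were higher and 0.61% lower, at 14 months 8.37% and 6.88% (1523 and 1252 genes, against 1228 and 1531 with quantile normalisation repeated), and Pdgfrb at 14 months was the only one of the 9 markers called within an age in this fit. Without the 3 tumours apart on the first component the 14-month calls were others, with Lrat (-0.99, adjusted p = 0.0211) and Reln (-2.44, adjusted p = 0.00358) past the threshold and Pdgfrb not (1.21, adjusted p = 0.0571). At 14 months Lrat passed in 7 of 25 settings and Reln in 3. With the ages combined the call held in 23 of 25 alternative settings but not with control_liver_11M replicate 2 left out (1.22, adjusted p = 0.0687) or with both nearly identical controls left out (1.47, adjusted p = 0.0655). The 14-month call lay at the threshold and held in 9 of 25, with adjusted p up to 0.155. The tumour effect at 14 months minus that at 11 months did not pass for any of the 9 markers (adjusted p = 0.999 for each), nor did it for any of all genes (0.0%, with 544 of 18193 at an unadjusted p under 0.05).

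Pdgfra encodes PDGF receptor alpha, which binds the A, B and C chains. It was at 6.60, 8.10 and 7.41 in the 11-month tumours and at 5.96, 6.50, 7.75, 7.35 and 6.06 in the 14-month tumours, against 6.84 and 6.72 in 11-month controls and 6.58, 6.90 and 6.26 in 14-month controls. Tumours lay on both sides of the controls, 4 above the highest control and 2 below the lowest. The log2 fold change was 0.37 (95% interval -0.39 to 1.13, limma adjusted p = 0.465). Its 3 probe sets gave 0.37, 0.06 and -0.18.

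Des encodes desmin, the intermediate filament of muscle that rodent stellate cells also carry. It ranged from 6.34 to 6.75 in the 11-month tumours and from 6.19 to 6.63 in the 14-month tumours, against 6.97 and 6.37 in 11-month controls and 6.44 to 6.60 in 14-month controls. The groups overlapped in part, with 2 tumours below every control and control_liver_11M replicate 1 above every tumour. The log2 fold change was -0.06 (95% interval -0.33 to 0.22, limma adjusted p = 0.773), so a change beyond 0.33 in size lies outside the interval. A second Des probe set at a mean level of 3.96, below the median of all probe sets, had -0.28 (adjusted p = 0.0276 over all probe sets).

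Acta2 encodes alpha smooth muscle actin, the usual stain for myofibroblasts. Its level was 7.53, 8.07 and 9.80 in the 11-month tumours and 7.68, 8.61, 9.47, 8.24 and 8.84 in the 14-month tumours, against 9.11 and 7.0 in 11-month controls and 7.07, 6.93 and 8.54 in 14-month controls. The 2 nearly identical controls, at 9.11 and 8.54, lay among the tumours, and the other 3 controls were below every tumour. Acta2 averaged 8.53 ± 0.81 in tumours and 7.73 ± 1.02 in controls (SD, n = 8 and 5), and the log2 fold change was 0.73 (95% interval -0.38 to 1.84, limma adjusted p = 0.318). Without both nearly identical controls it was 1.51 (adjusted p = 0.105). The other 2 Acta2 probe sets had mean levels of 4.14 and 2.86, below the median of all probe sets.

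Tagln encodes transgelin, an actin-binding protein of smooth muscle. It was at 6.63, 8.38 and 7.87 in the 11-month tumours and at 6.59, 7.28, 7.95, 7.29 and 7.54 in the 14-month tumours, against 8.31 and 6.45 in 11-month controls and 6.48, 6.60 and 7.96 in 14-month controls. The same 2 controls were high, at 8.31 and 7.96. The log2 fold change was 0.28 (95% interval -0.63 to 1.2, limma adjusted p = 0.649), and without both nearly identical controls it was 0.98 (adjusted p = 0.149). That pair moved the median over the 5 activated markers to 0.98 when left out, against 0.37 with it.

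Smooth muscle genes outside the marker set separated the same 2 controls. Myh11, the smooth muscle myosin heavy chain, was at 4.28 to 5.39 in tumours, against 6.45 and 5.82 in the 2 nearly identical controls and 4.23, 4.43 and 4.72 in the other 3. Cnn1, which encodes calponin, was at 3.61 to 4.24 in tumours, against 5.92 and 5.32 in the pair and 3.90, 3.81 and 4.17 in the other controls. Actg2, gamma smooth muscle actin, was at 3.55 to 4.88 in tumours, against 5.95 and 5.02 in the pair and 3.65, 3.61 and 3.52 in the others. In the pair these 3 genes exceeded every other array, tumours included, whereas the highest Acta2 and Tagln levels were in tumours. The part of vascular smooth muscle in the Acta2 and Tagln levels of these controls was not tested.

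**Figure D3:**
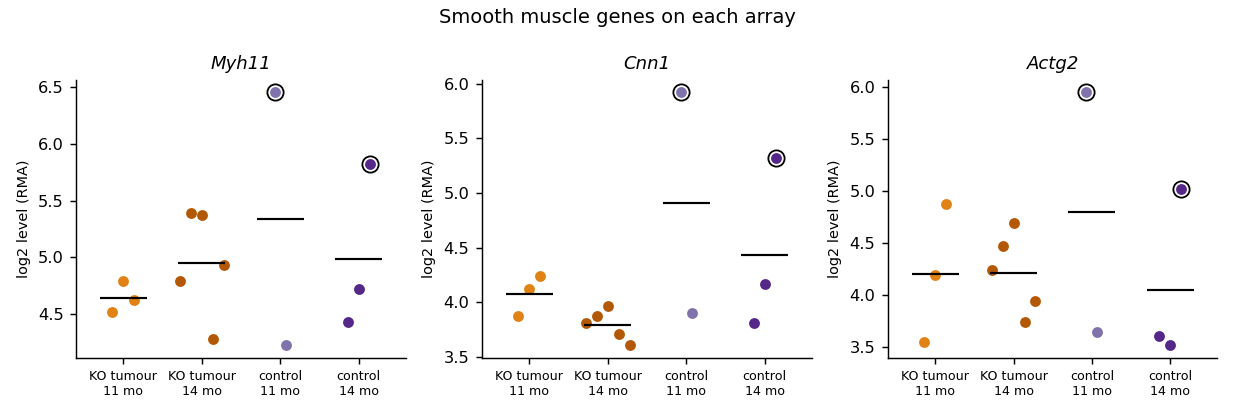
Log2 level (RMA, y axis) of Myh11, Cnn1 and Actg2 on each array, with points for arrays, lines for group means and rings around the 2 nearly identical controls. In all 3 panels the ringed controls are the highest arrays.

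Of 17 contractile genes and their regulators, 4 rose, 1 fell and 12 did not pass, with a median log2 fold change of 0.18, against 10.3% of all genes higher and 9.81% lower. Tpm1, a tropomyosin, stood at 9.32 ± 0.32 in tumours and 8.11 ± 0.55 in controls (SD, n = 8 and 5, log2 fold change 1.16, limma adjusted p = 0.00692). Smtn, which encodes smoothelin, rose by 0.90 (adjusted p = 0.0386), and the serum response factor coactivators Mrtfa and Mrtfb rose by 0.72 (adjusted p = 0.0122) and 0.70 (adjusted p = 0.0301). Mylk, the myosin light chain kinase, fell by 0.72 (adjusted p = 0.0247), and Srf itself had -0.24 (adjusted p = 0.192). With the nearly identical controls left out 1 of the 17 rose, Tpm1 (1.56, adjusted p = 0.00485), and 0 fell, and without the 3 tumours apart on the first component 4 rose and 1 fell. Of 9 vascular smooth muscle and pericyte markers 1 rose, Mcam (1.35, adjusted p = 0.0403), and 0 fell, with Notch3 at 0.39 and Kcnj8 at 1.15 not past the threshold, which is about the share among all genes. The mean level of these 9 genes was 6.52 to 7.75 in tumours and 6.4 to 6.69 in controls, highest in KO_tumor_14M replicate 3, which was also highest for Pdgfrb.

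**Figure D4:**
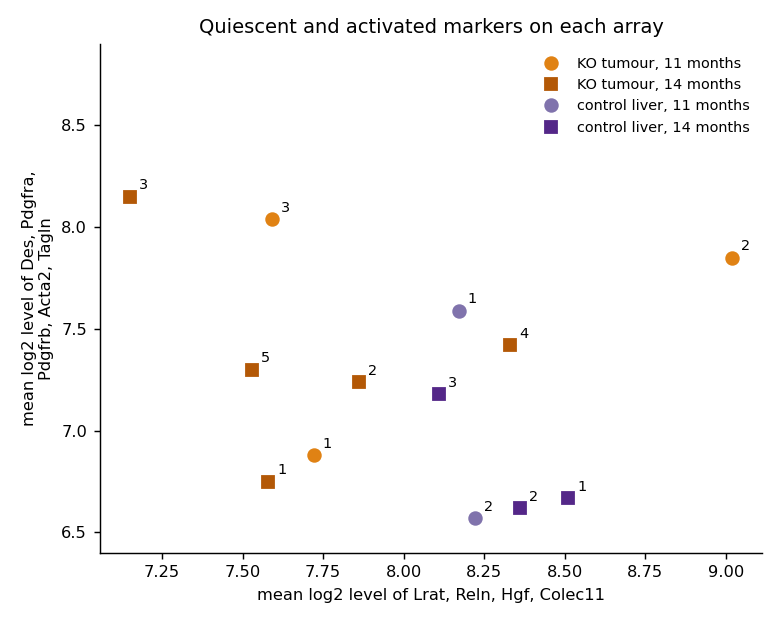
Mean log2 level of the 4 quiescent markers (x axis) against that of the 5 activated markers (y axis), with 1 point per array and replicate numbers beside the points. KO_tumor_14M replicate 3 (7.15 and 8.15) and KO_tumor_11M replicate 3 (7.59 and 8.04) lie at the upper left, 3 controls at the lower right, and KO_tumor_11M replicate 2 (9.02 and 7.85) apart at the right.

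Averaged per array, the quiescent markers stood at 7.85 ± 0.58 in tumours and 8.27 ± 0.16 in controls, and the activated markers at 7.45 ± 0.52 in tumours and 6.93 ± 0.44 in controls (SD, n = 8 and 5). The difference, activated minus quiescent, was -0.39 ± 0.75 in tumours, from -1.18 to 1.0, and -1.35 ± 0.56 in controls, from -1.84 to -0.58. These differences mix probe sets of unlike brightness, so only their order between arrays is read. KO_tumor_14M replicate 3 and KO_tumor_11M replicate 3 had the highest differences, 1.0 and 0.45, with the highest activated means and quiescent means below every control. KO_tumor_11M replicate 2 had high levels on both sides, with the highest Lrat, Reln, Hgf, Pdgfra and Tagln among tumours, and its difference of -1.18 was the lowest of any tumour. Its mean level over 9 macrophage markers, 8.78, was the highest of all arrays (6.55 to 8.38 in other tumours and 7.14 to 7.55 in controls); the part of these cells in its Hgf level was not tested. KO_tumor_14M replicate 1 and KO_tumor_11M replicate 1 had the lowest activated means among tumours, 6.75 and 6.88. Of the controls, the nearly identical pair had differences of -0.58 and -0.92, and the other 3 lay between -1.84 and -1.66.

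Of 20 other measured stellate cell genes from a list of 22, 7 fell, 1 rose and 12 did not pass, against 9.81% of all genes lower and 10.3% higher. Their median log2 fold change was -0.43. Ecm1, a secreted matrix protein, was at 8.24 ± 0.53 in tumours and 9.34 ± 0.28 in controls (SD, n = 8 and 5), a log2 fold change of -1.03 (limma adjusted p = 0.0131). Vipr1, a receptor of vasoactive intestinal peptide, had 5.05 ± 0.42 in tumours and 6.05 ± 0.22 in controls (-1.0, adjusted p = 0.00712), and Lhx2, a transcription factor that in mice restrains stellate cell activation, 4.37 ± 0.33 in tumours and 5.29 ± 0.28 in controls (-0.91, adjusted p = 0.00657). In tumours the means of Vipr1 and Lhx2 were below 5.17, the median of all probe sets. Angptl6, a secreted angiopoietin-like protein, fell by 0.86 (adjusted p = 0.0163) and Hand2, a transcription factor of the stellate lineage, by 0.72 (adjusted p = 0.0396). The gene that rose was Ednrb, the endothelin B receptor, which endothelial cells also express (8.37 ± 0.52 in tumours and 7.44 ± 0.40 in controls, 0.93, adjusted p = 0.0395). Without both nearly identical controls 4 fell (Ecm1, Vipr1, Lhx2 and Angptl6) and 0 rose, and without the 3 tumours apart on the first component 10 fell and 2 rose, when 13.4% of all genes fell and 16.6% rose.

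Among 17 measured genes of retinoid storage and use, 1 rose, 2 fell and 14 did not pass, with a median log2 fold change of -0.04. These counts are near the shares among all genes, 10.3% higher and 9.81% lower. Dgat1, an acyltransferase of triglyceride synthesis that can also esterify retinol, was at 9.5 ± 0.74 in tumours and 8.05 ± 0.07 in controls (SD, n = 8 and 5), a log2 fold change of 1.37 (limma adjusted p = 0.0133). Dhrs3, a retinal reductase, fell by 0.85 (adjusted p = 0.0257) and Lipe, a lipase that acts on retinyl and other esters, by 0.54 (adjusted p = 0.0419). Cyp26a1, which breaks down retinoic acid, had -1.82 (adjusted p = 0.102), and -3.19 (adjusted p = 0.000433) without the 3 tumours apart on the first component. Those 3 were the highest tumours for Cyp26a1, so leaving them out could only deepen the fall. Hepatocytes express many of these genes, so the list does not follow stellate cells alone. Of the 17, 0 passed without both nearly identical controls, and 3 rose and 6 fell without the 3 tumours apart on the first component.

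Of 16 measured genes of the matrix that myofibroblasts deposit, 10 rose, 0 fell and 6 did not pass, against 10.3% of all genes higher. Their median log2 fold change was 1.62. All tumours lay above all controls for 6 of the 16, against 6.22% of all genes. Col1a1, a chain of type I collagen, was at 6.59, 8.26 and 11.00 in the 11-month tumours and 6.72, 7.40, 10.42, 9.11 and 8.85 in the 14-month tumours, against 5.94 and 4.92 in 11-month controls and 4.96, 5.16 and 6.07 in 14-month controls. Its log2 fold change was 3.14 (SE 0.77, limma adjusted p = 0.0167), and the 2 tumours highest for Pdgfrb were also the 2 highest for Col1a1. Col3a1 rose by 2.62 (adjusted p = 0.0168), Col1a2 by 2.21 (adjusted p = 0.0345), Col5a2 by 2.16 (adjusted p = 0.011) and Vim, the intermediate filament vimentin, by 2.06 (adjusted p = 0.00446). Fap, a fibroblast protease, had 1.16 (adjusted p = 0.0598), and 1.97 (adjusted p = 0.00111) without the 3 tumours apart on the first component. When the nearly identical controls were left out 2 of the 16 rose, and without the 3 tumours apart on the first component 13 did. Without the nearly identical controls Vim was still called, but Col1a1, Col3a1, Col1a2 and Col5a2 were not. Their log2 fold changes were then 3.56, 3.11, 2.66 and 2.16. Vimentin is also made by macrophages and endothelium. Of their markers 3 of 9 and 2 of 12 rose and 0 fell, against 10.3% of all genes higher and 9.81% lower. The median log2 fold changes of these 2 lists were 0.27 and -0.04, and the part of these cells in the Vim level was not tested.

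**Figure D5:**
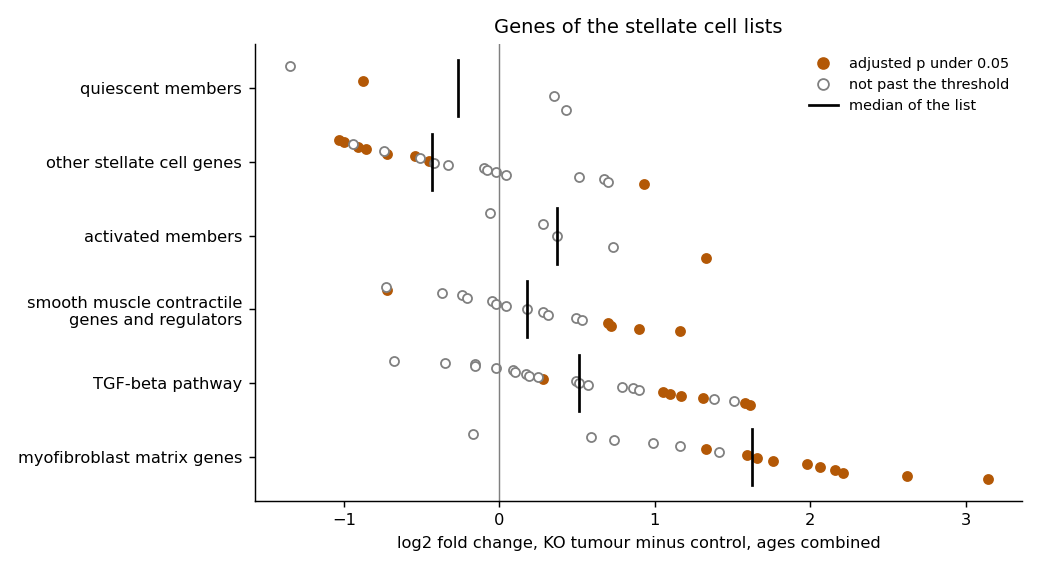
Log2 fold change, knockout tumour minus control with the ages combined (x axis), of every measured gene in 6 lists (rows), filled at an adjusted p under 0.05, with a vertical bar at each list's median. The median is -0.43 for other stellate cell genes, 0.18 for smooth muscle genes and 1.62 for myofibroblast matrix genes.

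Of the PDGF ligands, 2 of 4 rose and 0 fell (median 0.72), against 10.3% of all genes higher and 9.81% lower. Pdgfb, whose product binds both receptors, was at 6.27, 7.42 and 8.60 in the 11-month tumours and 7.35, 6.90, 9.15, 6.79 and 7.29 in the 14-month tumours, against 5.92 and 5.56 in 11-month controls and 5.62, 5.49 and 5.78 in 14-month controls. Every tumour was above every control, as for 6.22% of all genes, and the highest were again KO_tumor_14M replicate 3 and KO_tumor_11M replicate 3. The log2 fold change was 1.78 (SE 0.45, limma adjusted p = 0.0179), and Pdgfa rose by 0.69 (adjusted p = 0.0234). Pdgfd had 0.76 (adjusted p = 0.0657). With that pair of controls left out neither rise passed (Pdgfb 1.91, adjusted p = 0.086, and Pdgfa 0.58, adjusted p = 0.16), while without the 3 tumours apart on the first component 2 of the 4 rose.

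Transforming growth factor beta drives stellate cells to make collagen. Of 25 measured genes of its pathway 7 rose and 0 fell, against 10.3% of all genes higher and 9.81% lower. The median log2 fold change was 0.51. Itgav, an integrin subunit of the dimers that release the latent ligand, rose by 1.61 (limma adjusted p = 0.00389), the receptors Tgfbr2 by 1.58 (adjusted p = 0.00133) and Tgfbr1 by 1.17 (adjusted p = 0.00226), the ligand Tgfb2 by 1.31 (adjusted p = 0.00635) and the matrix protein Ltbp2 by 1.10 (adjusted p = 0.0284). Itgav was at 11.10 ± 0.67 in tumours and 9.45 ± 0.12 in controls (SD, n = 8 and 5), and Tgfbr2 at 10.64 ± 0.48 in tumours and 8.96 ± 0.40 in controls. Of these genes, Itgav, Tgfbr2, Tgfbr1 and Tgfb2 passed in every alternative setting in which they were tested. Many liver cells express them. Of the 25, 5 rose and 0 fell with the nearly identical controls left out, and 10 rose and 2 fell with the 3 tumours apart on the first component left out.

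In the pathway of HGF, 4 of 10 genes rose and 2 fell (median 0.09), against 10.3% of all genes higher and 9.81% lower. Plat, the tissue plasminogen activator, was at 8.09 ± 0.90 in tumours and 4.96 ± 0.27 in controls (SD, n = 8 and 5), a log2 fold change of 3.16 (limma adjusted p = 0.000897). Plaur, the urokinase receptor, rose by 1.27 (adjusted p = 0.0358), the HGF-activating protease St14 by 0.72 (adjusted p = 0.0116) and the protease inhibitor Spint2 by 0.55 (adjusted p = 0.00967). Hgfac, a circulating activator of HGF, fell by 1.12 (adjusted p = 0.0163) and the Met adaptor Gab1 by 0.61 (adjusted p = 0.0146), while Met had -0.43 (adjusted p = 0.326). Leaving out the nearly identical controls, 3 rose and 0 fell. Leaving out the 3 tumours apart on the first component, 4 rose and 4 fell, and Met passed (-1.09, adjusted p = 0.00102).

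Of 7 genes around reelin 0 passed, the receptor Vldlr standing at 0.61 (limma adjusted p = 0.125), and 0 passed without the nearly identical controls. Without the 3 tumours apart on the first component 3 of the 7 rose, Vldlr among them (1.07, adjusted p = 0.0108). Of 9 measured genes of the lectin pathway, in which Colec11 acts, 0 rose and 2 fell, with a median of -0.83. Among all genes 10.3% were higher and 9.81% lower. Fcna, a ficolin of macrophages, was at 7.01 ± 1.38 in tumours and 9.27 ± 0.13 in controls (SD, n = 8 and 5, log2 fold change -2.16, adjusted p = 0.0305), and the protease Masp2 fell by 0.73 (adjusted p = 0.00808). Colec10, the collectin that pairs with Colec11, had -1.98 (adjusted p = 0.0538), with 5.80 ± 1.5 in tumours and 7.93 ± 0.41 in controls. Mbl1, a mannose-binding lectin of hepatocytes, had -0.86 (adjusted p = 0.0641). Without both nearly identical controls 0 of the 9 passed, and without the 3 tumours apart on the first component 8 fell, Colec10 (-2.93, adjusted p = 0.00326) and Mbl1 (-1.43, adjusted p = 4.96e-05) among them.

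Markers of other cells that share these genes were read in the same way, against 10.3% of all genes higher and 9.81% lower. Of 15 portal fibroblast and mesothelial markers 2 rose and 2 fell, with a median log2 fold change of 0.01. Cd34, also an endothelial and progenitor antigen, rose by 2.40 (limma adjusted p = 0.00843) and the ectonucleotidase Entpd2 by 1.5 (adjusted p = 0.0156). The mesothelial genes Msln and Upk3b fell by 0.56 (adjusted p = 0.00495) and 0.45 (adjusted p = 0.0189), at mean levels of 3.92 and 4.77 in tumours, below the median of all probe sets. The mean level over the 15 was 4.93 to 5.47 in tumours and 4.72 to 5.12 in controls. Of 12 endothelial markers Lyve1 (2.24, adjusted p = 0.016) and Pecam1 (0.92, adjusted p = 0.044) rose, while Clec4g (-2.0, adjusted p = 0.0888) and Stab2 (-1.13, adjusted p = 0.0755) did not pass, with list means of 6.67 to 7.89 in tumours and 7.38 to 7.51 in controls. Of 9 macrophage markers Ccr2 (2.27, adjusted p = 0.00194), Cd68 (1.94, adjusted p = 0.00434) and Itgam (1.62, adjusted p = 0.0221) rose, and Clec4f, a marker of Kupffer cells, had -2.16 (adjusted p = 0.0624). None of 5 cholangiocyte and none of 9 lymphocyte markers passed. With the nearly identical controls left out 2 macrophage markers rose, and none of the portal, mesothelial, endothelial, pericyte, hepatocyte, cholangiocyte or lymphocyte markers passed. With the 3 tumours apart on the first component left out, 4 macrophage markers rose and 4 fell, 2 endothelial markers rose and 5 fell, and 5 hepatocyte markers fell. In that setting 3 portal or mesothelial markers rose and 2 fell, 1 pericyte marker and 2 lymphocyte markers rose, Clec4f (-3.62, adjusted p = 0.000286), Clec4g (-3.51, adjusted p = 0.00166) and Stab2 (-1.92, adjusted p = 0.000718) passed, and Lyve1 did not (1.64, adjusted p = 0.0683). The part of these cells in the marker levels was not tested.

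The genes whose levels ran closest to a marker over all 13 arrays were named as a description, by Pearson's r, without a test, and all points share the difference between tissues. Reln was followed by Efemp1 (r = 0.957), Rspo3 (r = 0.954) and Prepl (r = 0.953). Rspo3, which encodes a Wnt-enhancing secreted protein and is among the other stellate cell genes above, was at 4.77, 6.73 and 4.35 in the 11-month tumours and 4.06, 5.14, 4.12, 5.64 and 4.29 in the 14-month tumours, against 5.65 and 6.28 in 11-month controls and 5.91, 5.90 and 5.76 in 14-month controls. As for Reln, KO_tumor_11M replicate 2 was the highest array, KO_tumor_14M replicate 4 was next among tumours, and KO_tumor_14M replicates 1 and 3 were the lowest. Its log2 fold change was -0.94 (limma adjusted p = 0.121), and -1.53 (adjusted p = 0.00166) without the 3 tumours apart on the first component. With each tissue's mean removed, r between Reln and Rspo3 was 0.931. Pdgfrb ran closest to Atp8b2 (r = 0.969) and Lrat to Pstpip2 (r = 0.947). Myl9, a light chain of smooth muscle myosin, was the closest gene to both Acta2 (r = 0.905) and Tagln (r = 0.904), and with each tissue's mean removed these were 0.895 and 0.907.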

How the data were processed

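Each of 13 samples was hybridised to its own one-colour Affymetrix array, with biotin-labelled cRNA from total RNA of frozen liver, per the labels' protocols. The deposited values are on a log2 scale and were made by the authors with robust multi-array analysis (RMA), and Partek is named with it, per the submitters' processing notes. The version and background settings were not given in the sources used here. For this report, the log2 base was taken from the deposited values, which lie between 1.935 and 14.839 with array medians of 5.127 to 5.218. RMA values carry no detection call, and precision is limited by the 2 to 5 arrays in a group.

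The platform annotation pairs 34945 of 45101 probe sets with 1 gene, 932 with several and 9160 with none, and 64 are array controls. Each of 18193 genes was read from its probe set with the highest mean, with no filter on level. Limma 3.58.1 in R 4.3.3 (lmFit, eBayes, prior degrees of freedom 2.314) fitted a mean per group over all arrays. Contrasts were tumour against control with the ages weighted equally, at 11 months, at 14 months, and their difference, with Benjamini-Hochberg adjustment over all genes. Intervals of fold changes are from the same fit. Means over 8 tumours and 5 controls do not weigh the ages equally, so their difference can depart from the fold change. The fit was also run on simulated data with independent arrays and the same spread of a gene in every group. The real tumours and controls differ in spread, so that run does not bear on the p-values given here. Python 3.11.15 served for tables and plots.

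The 9 markers, the 16 other gene lists and the alternatives were chosen with earlier results of these data known. All 9 markers are named. Of each other list at most 5 genes per direction past the threshold, largest first, and at most 3 others were named, with the 3 genes most like each marker to draw from. The 25 alternatives were array weights, a trended and robust eBayes, repeated quantile normalisation, a shift of every array to 1 median, averaged probe sets per gene, all probe sets, KO_tumor_14M replicates 1 and 2 averaged (their titles carry no number), each array left out, both nearly identical controls left out, only arrays whose titles carry a number, the 3 tumours apart on the first component left out, only genes above the median level, and only the arrays compared with no age term. Replicate numbers follow the order of samples and pair nothing. Promoter sequences are RefSeq's (GRCm38.p6). No genome build is named for the array values, so no gene coordinates are given.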

Additional observations from a re-analysis of the deposited data

Results flagged for a closer look

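Of 27 groups of 5 or 8 arrays, the 9 markers each in the 14-month tumours, in all tumours and in all controls, 1 held an array far from the others by Dixon's test, which by chance marks about 1 in 20. Colec11 was at 9.69 in control_liver_14M replicate 1, the highest of all controls, against 9.36 in the next.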

How the results depend on the processing

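Only some of the 25 alternatives are listed here for each contrast. With the ages combined, 4839 genes were called with array weights and 4729 with only the arrays compared and no age term. The larger count without the 3 tumours is given above with the 9 markers. Against 3657 genes in the reported fit, 6958 of 45037 probe sets passed with all probe sets, 1368 genes without both nearly identical controls and 1759 with only the arrays numbered in their titles, and with each array left out between 1814 and 4359. At 11 months, against 349 genes, the counts were 232 with KO_tumor_14M replicates 1 and 2 averaged, 35 without both nearly identical controls, 55 with only the arrays numbered in their titles, 2269 without the 3 tumours apart on the first component and 0 with only the arrays compared (2070 at an unadjusted p under 0.05 by limma), and between 21 and 731 with each array left out. At 14 months, against 2775 genes, they were 4844 with all probe sets, 5659 with array weights, 874 without both nearly identical controls, 249 with only the arrays numbered in their titles and 4792 without the 3 tumours, and between 922 and 3537 with each array left out. The difference between ages, with 0 genes called, had 9 without the 3 tumours and 0 to 1 with each array left out. The median of the activated markers, 0.37, was 0.98 without both nearly identical controls, and with each array left out ran from 0.18 to 0.75. Where these settings leave 1 control at 11 months, that array is assumed to vary like the other groups.

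The sign turned for markers near 0, none of them past the threshold. Des turned to 0.09 without both nearly identical controls and 0.04 without the 3 tumours with the ages combined, to 0.24 and 0.08 in the same settings at 11 months, and to 0.01 without the 3 tumours at 14 months. With each array left out Des ran from -0.21 to 0.09 with the ages combined, -0.35 to 0.24 at 11 months and -0.10 to 0.01 at 14 months. Hgf at 14 months turned to -0.07 with probe sets averaged and -0.01 without the 3 tumours, and ran from -0.01 to 0.30 with each array left out. Pdgfra at 14 months turned to -0.02 with the mean of probe sets or array weights and to -0.01 without the nearly identical controls or without the 3 tumours, and ran from -0.11 to 0.34 with each array left out. With each array left out Acta2 at 11 months ran from -0.65 to 1.46, Tagln from -0.18 to 0.75 with the ages combined and from -0.68 to 1.18 at 11 months, Myh11 from -0.92 to 0.19 and Actg2 from -0.79 to 0.36 with the ages combined. Myh11 turned to 0.40 and Actg2 to 0.60 without both nearly identical controls, and Actg2 to 0.18 without the 3 tumours. The cause was not tested. No paired analysis was possible because the replicate numbers follow sample order.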
